A study of Mus musculus with 81 samples.

Results

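C57BL/6J, C57BL/10J, C57L/J and C57BLKS/J are the C57 family, inbred laboratory strains with a shared ancestry, and their bone marrow neutrophils were compared here with those of the other classical inbred strains. Sample titles chose the members: the titled groups B6, B10, C57KS and C57L hold 11 of the 81 arrays of the series. C57BL/6J has 5 arrays, and C57BL/10J, C57BLKS/J (labelled C57BLKS/J(662)) and C57L/J (labelled C57L/J (668)) have 2 each. The comparison group is 26 other classical strains with 50 arrays: 129S1/SvImJ, A/J, AKR/J, C3H/HeJ, CBA/CaJ, CBA/J, CE/J, DDY/JclSidSeyFrkJ, FVB/NJ, KK.Cg-Ay/J, LGJ, LP/J(676), MA/MyJ, MRL/MpJ, NOD/ShiLtJ, NON/ShiLtJ, NOR/LtJ, NZB/BINJ, NZW/LacJ, P/J, PL/J, RIIIS/J, SEA/GnJ, SJL/J, SM/J and SWR/J. FVB/NJ and SWR/J have 1 array each. Left out were 5 wild-derived groups and 5 groups whose title and background label name different strains, each set with 10 arrays. Animals were males aged 6 weeks per the labels, with no treatment named, and each array holds RNA pooled from several mice. The name KK.Cg-Ay/J holds the Ay allele of the agouti gene, and no other allele is named.

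Neutrophils are short-lived phagocytes that are stored in bone marrow and kill microbes with granule proteins and oxidants. Strains of one family share long stretches of the genome by descent, so a variant that sets the level of a transcript in one of them is often present in all. C57BL/6J is also the reference strain for the mouse genome and for the probes of this array type. A variant under a probe can therefore reduce the signal of another strain, which cannot be told apart here from less transcript. C57BLKS/J is known to carry segments from DBA/2J, including its histocompatibility region, and NOR/LtJ carries segments from C57BLKS/J.

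Transcripts of both sort markers were high in all 4 C57 strains, at 12.49 to 12.70 for Itgam (CD11b) and 13.49 to 13.62 for Ly6g. Among 10 neutrophil identity markers, which are Itgam, Ly6g, S100a8, S100a9, Csf3r, Cxcr2, Mmp9, Camp, Ngp and Ltf, none was called in the comparison with the other strains (limma, 1 at an unadjusted p under 0.05). The mean over the list was between 13.28 and 13.33 in the C57 strains and between 13.28 and 13.39 in the others, in log2 intensity, the scale of all values here. Array medians were between 98.4 and 109.5 intensity units in the C57 arrays and between 97.2 and 114.8 over all 61 arrays compared. Array 2 of C57L/J stood apart: its mean over 50 small nucleolar RNA genes was 9.56, against 7.42 to 8.61 in the other 60 arrays. Values without this array are given beside the named calls that it ended and beside the counts of the spread within the family.

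Differences are C57 family minus other classical strains, computed from 1 mean per strain (n = 4 and n = 26) with their standard error (SE). In limma, with Benjamini-Hochberg adjustment over all 24922 probe sets, 126 (0.506%) passed an adjusted p of 0.05 and are called changed. Of these 81 (0.325%) were higher and 45 (0.181%) lower in the C57 family, and 2078 passed an unadjusted p of 0.05. A difference of at least 2-fold was seen in 32 called probe sets, 19 higher and 13 lower. The median difference over all 19752 named genes was -0.02. By gene, with the brightest probe set of each, 98 (0.496%) were called, 56 higher and 42 lower. In 40 probe sets (0.161%) all 4 C57 means lay beyond all 26 others, and 33 of these were called. Of the strains left out in turn C57BL/10J moved the count most: without it 59 probe sets were called, 33 of them higher.

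**Figure D1:**
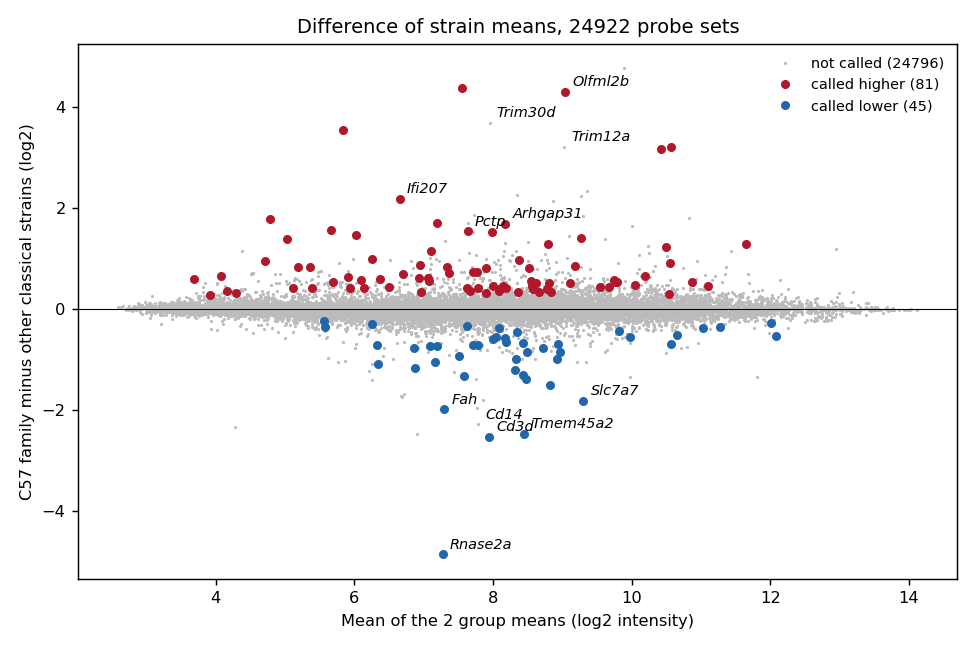
Difference between the C57 family and the other classical strains (vertical axis, log2) against the mean of the 2 group means (horizontal axis, log2 intensity) for 24922 probe sets. Red points are the 81 called higher and blue points the 45 called lower; Rnase2a lies lowest at -4.87, while Trim30d and Trim12a are large but not called.

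Rnase2a, a ribonuclease of the eosinophil-associated family, showed the largest difference of any called gene. The C57BL/10J arrays read 4.86 and 4.76, the C57BL/6J arrays 4.93, 4.49, 4.46, 4.57 and 4.98, the C57BLKS/J arrays 4.70 and 4.36, and the C57L/J arrays 5.02 and 5.64. All 11 arrays were low. The other strains ran from 7.36 in SWR/J to 11.52 in P/J with a median of 10.17, so the groups did not overlap. The difference was -4.87 ± 0.64 (SE; limma, adjusted p = 2.2e-05), a measured ratio of 29.2-fold. The C57 mean of 4.84 lay low on the arrays, where 11.2% of probe sets had a lower C57 mean. No detection call was used here, so whether this signal is above background is not known, and the ratio is a lower bound if it is not. The other strains themselves covered a wide span, with 9 of them between 7.36 and 8.72 and P/J the highest. No eosinophil marker was called with it: of 8 measured 0 passed in limma (1 at an unadjusted p under 0.05). Among the 8, 3 had a positive and 5 a negative difference. Epx (eosinophil peroxidase) was at -0.01, Prg2 (major basic protein) at -0.04 and the surface lectin Siglecf at -0.03. The chemokine receptor Ccr3, also on this list, was at 0.34 ± 0.15 (limma, adjusted p = 0.53). The list mean of the 8 markers was 6.40 to 6.66 in the C57 strains and 6.28 to 7.0 in the others. Rnase2a has close relatives in the mouse genome, and how far its probes separate them was not tested.

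The RefSeq promoter of Rnase2a is shown because this gene had the largest difference. It spans chr14:51256063-51256362 (GRCm38.p6, minus strand), from 250 bases before to 50 after the annotated start, and is written 5′ to 3′ on the gene's strand. Capitals mark matches on either strand to GAGGAA, the core bound by PU.1, and TTGCNNAA, a motif of C/EBP proteins; both are factors of granulocyte development. Over 32851 RefSeq promoters of the same length, 28.3% hold GAGGAA and 10.8% hold TTGCNNAA. The match is a description of these letters alone, in the reference strain.
Rnase2a: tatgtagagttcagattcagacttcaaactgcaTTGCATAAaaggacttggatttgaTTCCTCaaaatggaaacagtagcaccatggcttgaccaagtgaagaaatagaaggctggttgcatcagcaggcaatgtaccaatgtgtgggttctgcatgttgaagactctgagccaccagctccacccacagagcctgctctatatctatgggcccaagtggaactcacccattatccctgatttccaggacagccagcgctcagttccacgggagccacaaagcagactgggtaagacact

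Amino-acid carriers were called in both directions. Slc7a7, the light chain of the cationic amino-acid exporter y+LAT1, read 8.43 in C57BL/10J, 8.39 in C57BL/6J, 8.21 in C57BLKS/J and 8.53 in C57L/J. The others were between 9.04 in SM/J and 10.58 in LGJ, with a median of 10.27. The groups did not overlap, and the difference was -1.82 ± 0.15 (SE; limma, adjusted p = 3e-09). Slc7a8, the light chain of the neutral amino-acid transporter LAT2, went the other way by 0.87 ± 0.11, from 7.23 to 7.49 in the C57 strains against 6.21 to 7.07 in the others. Abhd4, a lipase of N-acyl phospholipid metabolism that lies near Slc7a7, was lower by 0.98 on the log2 scale, with C57 means of 7.77 to 7.92 and the lowest other strain, NZB/BINJ, at 8.07.

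The genes that were higher included enzymes and carriers of lipids and enzymes of lysosomes. Pctp, which carries phosphatidylcholine between membranes, had the smallest adjusted p of the named genes. It read 8.39 in C57BL/10J, 8.51 in C57BL/6J, 8.49 in C57BLKS/J and 8.23 in C57L/J, against 6.65 in RIIIS/J to 7.08 in SWR/J and a median of 6.87. The 2 ranges were well apart and the spread was small on both sides (SD 0.13, n = 4, and 0.12, n = 26), with a difference of 1.54 ± 0.07 (SE; limma, adjusted p = 1.1e-16). Asah1, the acid ceramidase of lysosomes, was at 10.98, 11.04, 11.12 and 10.90 in the 4 strains in the same order, and no other strain exceeded 10.33 (difference 0.91 ± 0.08). Ces1d, a carboxylesterase, was higher by 1.70 ± 0.25 and uneven within the family, from 7.44 in C57BL/6J to 8.74 in C57L/J. FVB/NJ, at 7.59, overlapped with it, and the carboxylesterase 1 genes are near-identical copies, so the share of each in this signal is uncertain. Ggh, the lysosomal hydrolase that trims folate polyglutamates, was higher by 1.29 ± 0.25, and FVB/NJ (9.14) lay just above C57BL/6J (9.09). Ctsl, the protease cathepsin L, was higher by 0.72 ± 0.16. Without C57BLKS/J the Ggh difference was 1.17 and no longer called. The Ctsl difference was also not called without C57BL/10J (0.73), C57BL/6J (0.73), C57BLKS/J (0.68) or C57L/J (0.75).

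Enzymes of nucleotide, sugar and amino-acid metabolism were called in both directions. Pnp, purine nucleoside phosphorylase, was at 8.75 in C57BL/10J, 8.23 in C57BL/6J, 8.84 in C57BLKS/J and 9.18 in C57L/J. The others lay between 6.30 in MA/MyJ and 7.93 in MRL/MpJ, below all 4, with a difference of 1.53 ± 0.21 (SE; limma, adjusted p = 3e-05). Pnp has a neighbouring near-identical copy, and the probes may read both. Gfpt1, the entry enzyme of the hexosamine pathway, was higher by 0.86 ± 0.20, with NZW/LacJ at 10.08 above every C57 strain. Lcmt2, an enzyme of transfer RNA modification, was higher by 0.72 ± 0.13, with MRL/MpJ (8.19) inside the C57 range of 7.96 to 8.22. The Gfpt1 call was lost without C57BL/10J (0.84), C57BL/6J (0.83) or C57BLKS/J (0.81). Fah, which catalyses the last step of tyrosine breakdown, was lower by 1.98 on the log2 scale. Its C57 means were 6.22 to 6.44 and its others 6.13 to 9.25, where SM/J (6.13) and CE/J (6.36) lay as low as the C57 strains. Gk5, a glycerol kinase-like protein, was lower by 1.38 on the log2 scale, with all 4 C57 means (7.59 to 7.93) below the lowest other strain, NZB/BINJ (8.10).

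Signalling genes made up a further group. Arhgap31, which switches off the GTPases Cdc42 and Rac1, read 9.0 in C57BL/10J, 9.09 in C57BL/6J, 9.27 in C57BLKS/J and 8.74 in C57L/J. The other strains were between 7.0 and 8.10, with P/J the highest, and the difference was 1.69 ± 0.11 (SE; limma, adjusted p = 4.4e-12). Arl3, a small GTPase of lipidated-protein traffic, was higher by 0.82 ± 0.15 and Mmd, named for monocyte to macrophage differentiation, by 0.83 ± 0.15, each with no overlap. Prkar2a, a regulatory subunit of protein kinase A, was higher by 1.15 ± 0.25. CBA/J and CBA/CaJ lay inside its C57 range of 7.20 to 8.0. The Prkar2a call was lost without C57BL/10J (1.06), C57BLKS/J (1.18) or C57L/J (1.04), and that of Arl3 without C57BL/10J (0.77). Ssh1, the phosphatase that activates cofilin, was lower by 1.30 on the log2 scale. C57BLKS/J (8.84) did not share this, lying among the other strains (7.84 to 9.97), while the rest of the family was at 7.20 to 7.86. The Ssh1 call was lost without C57BL/10J (-1.12), C57BL/6J (-1.32) or C57L/J (-1.11).

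Several of the lower genes code for surface or matrix proteins or for enzymes that make them. Fcrl1, an Fc receptor-like protein best known from B cells, read 7.86, 8.10, 7.56 and 7.34 in C57BL/10J, C57BL/6J, C57BLKS/J and C57L/J. All other strains were higher, from 8.34 in SWR/J to 9.23 in C3H/HeJ, and the difference was -1.21 ± 0.14 (SE; limma, adjusted p = 1.9e-06). Of 9 B cell markers 0 were called in limma (0 at an unadjusted p under 0.05), and their list mean was 6.03 to 6.13 in the C57 strains against 5.94 to 6.51. Has2, a hyaluronan synthase, was lower by 1.51 on the log2 scale without overlap, with C57 means of 7.81 to 8.32 and others of 8.88 to 10.74. Adgrl4, an adhesion receptor coupled to G proteins, was lower by 1.32 on the log2 scale. Ccrl2, an atypical receptor that binds chemerin, was lower by 1.18 on the log2 scale (6.19 to 6.45 against 6.43 to 8.50), and its call was lost when any one C57 strain was left out (-1.23 to -1.15). Tmod4, a tropomodulin that caps actin filaments, was lower by 1.05 on the log2 scale, Galnt10, a glycosyltransferase, by 0.98 and Bend4 by 0.93. Galnt10 in C57L/J was at 9.23, inside the range of the other strains, while the rest of the family was at 8.04 to 8.32. Calls were lost without C57BL/10J for Tmod4 (-0.93), Galnt10 (-0.95) and Bend4 (-0.87), without C57BL/6J for Tmod4 (-1.05) and Galnt10 (-0.89), without C57BLKS/J for Galnt10 (-0.85) and without C57L/J for Tmod4 (-0.93).

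Cd3d, a chain of the T cell receptor complex, was lower by 2.53 on the log2 scale. It read 6.75 in C57BL/10J, 6.83 in C57BL/6J, 6.77 in C57BLKS/J and 6.37 in C57L/J, and the other strains ran from 6.68 in NZB/BINJ to 10.23 in FVB/NJ with a median of 9.61. The other strains fell into 6 between 6.68 and 7.81 and 20 between 9.29 and 10.23, and the C57 strains lay with the lower ones. The Cd3d call was lost without C57BL/10J (-2.56) or C57L/J (-2.43). No other T and NK cell marker was called with it: Cd3d was the 1 of 10 measured (2 at an unadjusted p under 0.05), and all 10 had a negative difference with a median of -0.06, while Cd3e, another chain of the same complex, was at -0.06. Cd3g, which lies beside Cd3d, was at -1.23 (adjusted p = 0.27) and not called, but was called in limma with the strain as a random block (-1.18, adjusted p = 0.0131). That fit counts single arrays, with 1 within-strain correlation for all probe sets. Its p-values can be too small where strains differ widely. The list mean was 5.81 to 5.85 in the C57 strains and 5.84 to 6.45 in the others.

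**Figure D2:**
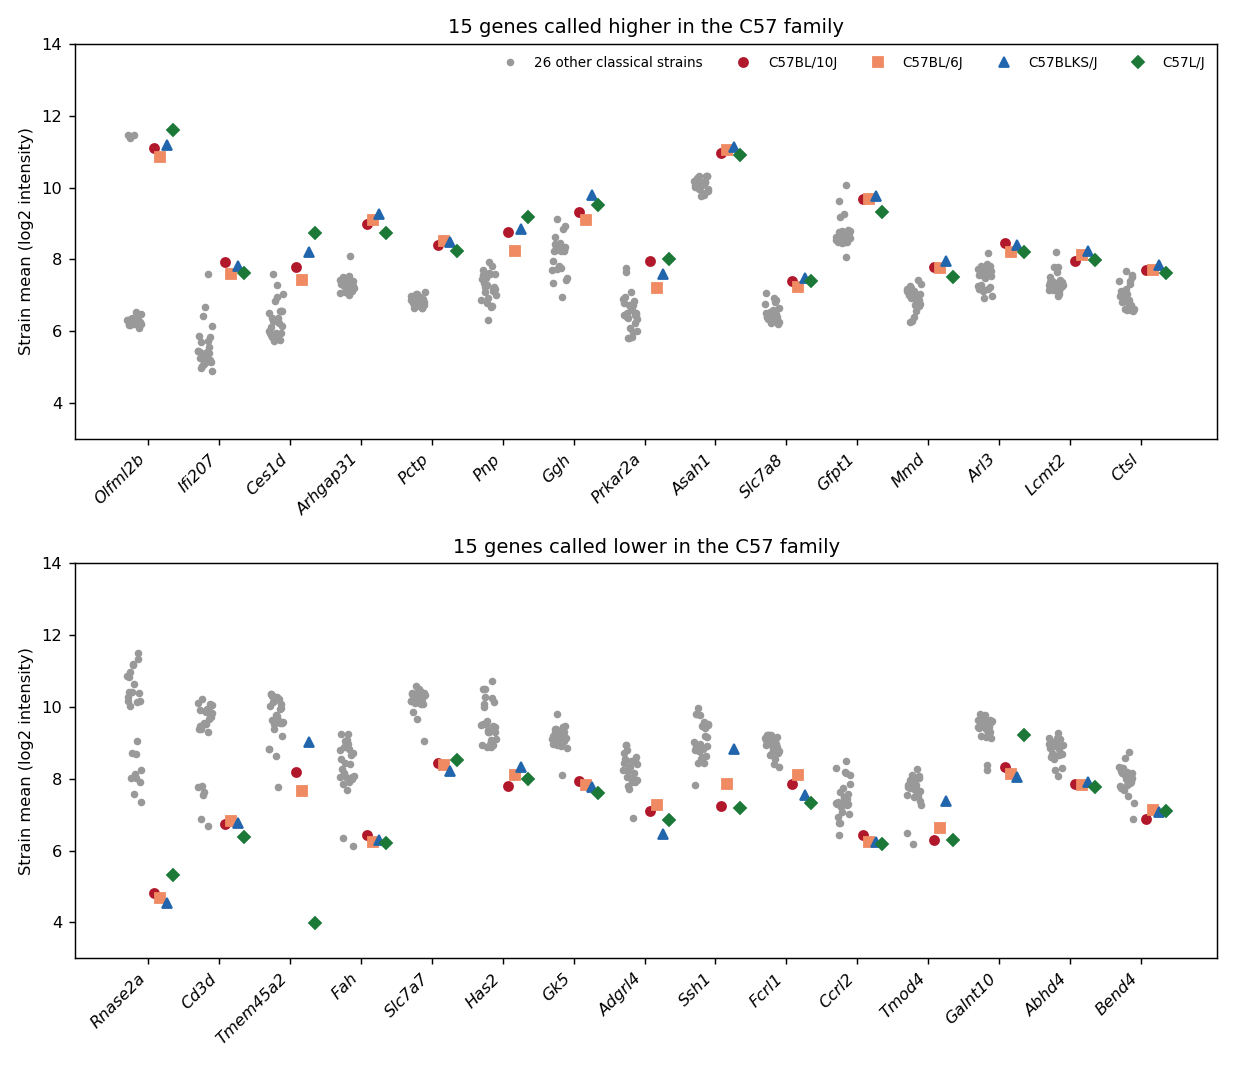
Strain means (vertical axis, log2 intensity) of the genes with the largest called differences, 15 in each direction; coloured symbols are the 4 C57 strains and grey points the 26 other classical strains. Pctp, Asah1, Slc7a7 and Rnase2a do not overlap between groups, while Olfml2b, Fah and Cd3d have other strains at the C57 level.

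Olfml2b, a secreted olfactomedin-like protein of the extracellular matrix, was the largest called gene in the higher direction, and it was not particular to the family. Its means were 11.10 in C57BL/10J, 10.85 in C57BL/6J, 11.19 in C57BLKS/J and 11.62 in C57L/J. Of the other strains, 23 lay between 6.10 and 6.53, and AKR/J (11.48), MA/MyJ (11.46) and CBA/J (11.37) lay at the C57 level. CBA/CaJ, at 6.19, differed from CBA/J at this gene. The difference was 4.31 ± 0.81 (SE; limma, adjusted p = 0.0039). Tmem45a2, a transmembrane protein, was lower, with 1 family member far below the rest. C57L/J read 3.99, against 7.66 to 9.02 in the rest of the family and 7.78 to 10.36 in the other strains. C57BL/6J (7.66) also lay below every other classical strain, and only NZB/BINJ (7.78) among those lay below C57BL/10J. C57BLKS/J (9.02) lay inside their range. Without C57L/J the Tmem45a2 difference was -1.40 in place of -2.47 and not called.

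The 5 wild-derived groups, when added to the other strains, ended the calls of 13 of the 30 genes with the largest differences. These were Olfml2b (3.97, adjusted p = 0.0502 in limma), Ces1d (1.49), Ggh (1.20), Gfpt1 (0.89), Asah1 (0.77, adjusted p = 0.0994), Lcmt2 (0.65) and Ctsl (0.65) among the higher genes. Among the lower genes they were Tmem45a2 (-2.25), Adgrl4 (-1.18), Ssh1 (-1.17), Ccrl2 (-1.12), Galnt10 (-0.99) and Tmod4 (-0.93). Of the genes named below, Cd48, Hlf, Ifi208, Inppl1, Ncf4, Prdx2, Sh2d1b1, Tmem62 and Ttbk2 were also not called in that fit.

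Many called genes lay near another called gene in the genome. Of 98 called genes, 41 (41.8%) had another called gene within 10 measured genes on the same chromosome, against 1459 of all 19677 ordered genes (7.41%) that had a called gene as near. No test was made of this difference. Directly adjacent called genes formed 12 pairs, of which 10 moved in the same direction, and the wider window gave 33 pairs, of which 24 did. The genes in these pairs, beyond those named above, were chosen after their values were seen. Pctp, Mmd and Hlf, a circadian transcription factor (0.45), were higher together. In another stretch the kinase Ttbk2 (-0.71), the ubiquitin ligase Ubr1 (-0.69) and Tmem62 (-0.72) were lower while Lcmt2 was higher. Near Olfml2b the signalling adaptor Sh2d1b1 was higher by 1.38 ± 0.28, with AKR/J (6.36) at the C57BL/10J level. CBA/J (5.50) and MA/MyJ (5.18) lay toward the C57 mean of 5.71, and the remaining other strains were at 3.77 to 4.62. AKR/J, CBA/J and MA/MyJ were also the strains at the C57 level for Olfml2b. Cd48, an adhesion ligand of immune cells (-1.09), and the gamma-secretase subunit Ncstn (-0.56) were lower together, as were the nucleotide receptor P2ry2 (-0.86) and the inositol phosphatase Inppl1 (-0.74). Close to Asah1, Mtus1, a microtubule-associated protein, was lower by 0.38 on the log2 scale without overlap. Near Fcrl1, Cd5l, a macrophage scavenger protein, was higher by 0.53.

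**Figure D3:**
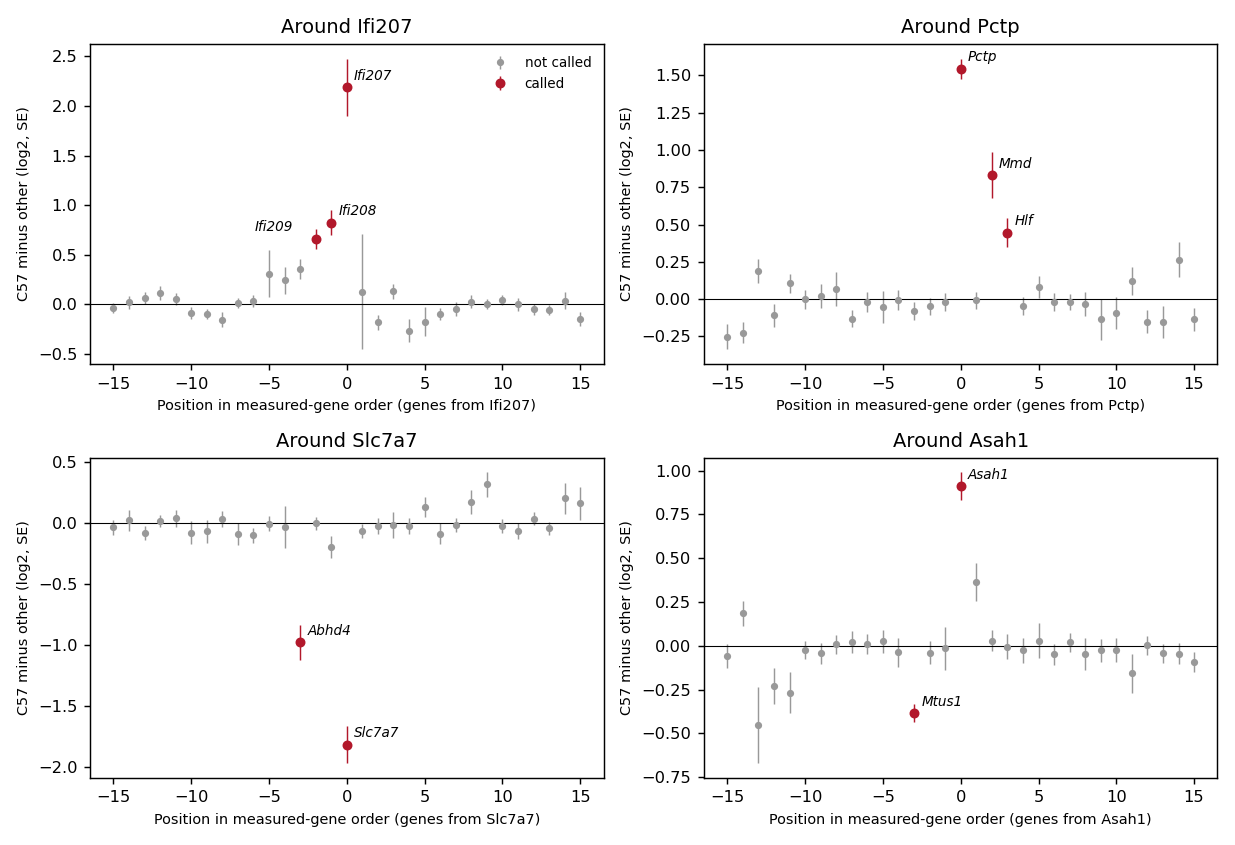
Difference between the C57 family and the other classical strains (vertical axis, log2, bars are SE) for measured genes in their order along the chromosome (horizontal axis, number of genes from the named one), around 4 called genes. Called genes are in red and the others in grey: Ifi209, Ifi208 and Ifi207 lie side by side and all higher, as do Mmd and Hlf near Pctp, and Mtus1 is lower near Asah1, which is higher. Most grey genes lie near 0, with Ifi213 (0.36), Frg1 (0.36) and Zdhhc2 (-0.45) among those that do not.

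Several of these neighbours depended on single strains. Without C57BL/10J, Sh2d1b1 (1.16), Hlf (0.42), Ttbk2 (-0.74), Tmem62 (-0.69), Inppl1 (-0.73) and Cd5l (0.40) were not called. Without C57L/J this held for Hlf (0.42), Ttbk2 (-0.68), Ubr1 (-0.59), Tmem62 (-0.61), P2ry2 (-0.78) and Inppl1 (-0.71), and without C57BLKS/J for Hlf (0.45), Ttbk2 (-0.67), Tmem62 (-0.75) and Inppl1 (-0.77). Without array 2 of C57L/J, Tmem62 (-0.64, adjusted p = 0.064) and Inppl1 (-0.71, adjusted p = 0.0537) were not called in limma. Inppl1 was close to the threshold and was also lost without C57BL/6J (-0.75) and without several of the other strains.

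Runs of at least 3 neighbouring called genes numbered 2. The first held Ifi209, Ifi208 and Ifi207, members of the Ifi200 family of interferon-inducible nuclear proteins, some of which sense DNA. Ifi207 read 7.93 in C57BL/10J, 7.60 in C57BL/6J, 7.83 in C57BLKS/J and 7.63 in C57L/J. The other strains were between 4.89 in SWR/J and 7.58 in NZW/LacJ with a median of 5.41, so NZW/LacJ all but reached the family. The difference was 2.19 ± 0.29 (SE; limma, adjusted p = 2.5e-05). Array values were uneven within C57L/J, at 8.19 and 7.06, and within C57BL/6J, at 7.12 to 8.15. Some arrays of both strains lay below the NZW/LacJ mean, so the strain means separate but the single arrays do not. Ifi208 was higher by 0.83 ± 0.13 and Ifi209 by 0.66 ± 0.10, both at low levels (C57 means 5.49 to 5.97 and 4.16 to 4.62), with NZW/LacJ again the highest other strain. Of the 9 measured members of the Ifi200 family these 3 were called higher and 0 lower, where 0.496% of all genes were called, with a median difference of 0.31 against -0.02 over all genes. The list mean was 5.48 to 5.58 in the C57 strains. In the others it ran from 4.75 to 5.82 with a median of 4.95, and KK.Cg-Ay/J, the highest, lay above all 4 C57 strains. The genes of the Ifi200 family are similar in sequence, and probes may read more than one.

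The promoters of the 3 genes are shown because the genes were higher together. They span chr1:173630609-173630908 (plus strand), chr1:173673415-173673714 (plus strand) and chr1:173741760-173742059 (minus strand) in RefSeq on GRCm38.p6, again from 250 bases before to 50 after the start. Capitals mark matches to GAGGAA, to TTGCNNAA and to GAAA followed by any 2 bases and a further GAAA, a core of the interferon-stimulated response element that 3.44% of promoters hold. Ifi207 and Ifi208 each have this core, in Ifi208 overlapping GAGGAA. Ifi208 and Ifi209 each have TTGCNNAA on the reverse strand.
Ifi209: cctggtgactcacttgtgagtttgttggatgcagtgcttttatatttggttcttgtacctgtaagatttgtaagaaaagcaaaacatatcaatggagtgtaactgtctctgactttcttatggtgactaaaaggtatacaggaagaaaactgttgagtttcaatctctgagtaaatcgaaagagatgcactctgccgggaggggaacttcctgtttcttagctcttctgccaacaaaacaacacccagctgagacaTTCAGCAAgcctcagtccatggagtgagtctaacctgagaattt
Ifi208: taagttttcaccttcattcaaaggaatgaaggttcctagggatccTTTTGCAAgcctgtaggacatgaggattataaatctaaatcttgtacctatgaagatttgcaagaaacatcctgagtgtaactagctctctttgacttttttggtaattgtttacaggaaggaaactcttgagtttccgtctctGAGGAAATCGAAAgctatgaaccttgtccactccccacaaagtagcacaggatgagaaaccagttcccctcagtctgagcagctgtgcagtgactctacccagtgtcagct
Ifi207: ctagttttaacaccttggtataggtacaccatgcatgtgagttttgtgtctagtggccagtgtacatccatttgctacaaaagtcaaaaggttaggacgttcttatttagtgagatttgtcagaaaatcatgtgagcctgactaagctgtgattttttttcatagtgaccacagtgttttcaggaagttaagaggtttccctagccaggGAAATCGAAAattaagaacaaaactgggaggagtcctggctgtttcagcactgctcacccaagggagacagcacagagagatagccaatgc

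The second run held Xkr5, a membrane protein of the XK-related family, and the beta-defensin genes Defb40, Defb37 and Defb38, which code for small antimicrobial peptides. Defb40 read 5.64 in C57BL/10J, 5.71 in C57BL/6J, 5.71 in C57BLKS/J and 5.65 in C57L/J, with a median of 3.78 in the others. CE/J was higher still at 6.31, and all the remaining strains were lower than the family. The difference was 1.79 ± 0.25 for Defb40, 0.95 ± 0.18 for Defb37, 0.36 ± 0.07 for Defb38 and 0.34 ± 0.07 for Xkr5. Defb37 also had CE/J (5.91) above the C57 range of 5.06 to 5.32. The defensin levels are in the low part of the array's range. The Defb38 call was lost when array 2 of C57L/J was left out (0.21), and without C57BL/10J (0.34) or C57L/J (0.33). The Xkr5 call was lost without C57BL/10J (0.30) or C57BLKS/J (0.30).

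Genes of the interferon response lay toward the higher side, with no single gene passing the test on strain means. Of 26 measured interferon-stimulated genes 0 were called in limma, 12 passed an unadjusted p of 0.05, as did 1557 of all 19752 genes (7.88%), and 25 had a positive difference, with a median of 0.46 against -0.02 over all genes. The list mean was 8.87 to 9.08 in the C57 strains. In the others it ran from 7.66 in FVB/NJ to 9.21 in C3H/HeJ, with a median of 8.44. Rsad2, the antiviral enzyme viperin, was at 10.39, 10.04, 10.24 and 10.53 in C57BL/10J, C57BL/6J, C57BLKS/J and C57L/J and between 6.95 and 10.35 in the others (1.38 ± 0.40, adjusted p = 0.15). Rsad2 was called in limma with weights by arrays per strain (adjusted p = 0.0426), on single arrays with the strain as a random block (0.00159) and with the replicate block added to that (0.0191). The block fits count single arrays with a correlation shared by all probe sets, so their p-values can be too small. Oasl2, an oligoadenylate synthetase-like protein, differed by 1.64 ± 0.77 (adjusted p = 0.57) amid a wide spread of the other strains (6.03 to 11.34). Among 10 measured GTPases of the guanylate-binding and immunity-related families 0 were called (limma; 2 at an unadjusted p under 0.05), with a median of 0.03.

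Tripartite-motif genes of the Trim12 and Trim30 cluster, which include regulators of viral restriction and innate signalling, gave large values without a call on strain means. Trim30d read 9.74 in C57BL/10J, 9.68 in C57BL/6J, 10.04 in C57BLKS/J and 9.71 in C57L/J. The highest other strain, KK.Cg-Ay/J, stood at 9.62 and the median of the others was 4.73, so the C57 strains lay beyond all others. The difference was 3.69 ± 0.97 (SE; limma, adjusted p = 0.091), and it was called without KK.Cg-Ay/J (3.83) and with 4 of the groups of conflicting labels added (3.90). Leaving out KK.Cg-Ay/J, the nearest strain, must widen the difference. Trim12a was at 10.27 to 10.87 against 5.88 to 10.94, a difference of 3.22 ± 0.92 (adjusted p = 0.13). Both were called in limma with weights by arrays per strain (adjusted p = 0.0215 for Trim30d and 0.0336 for Trim12a), with the strain as a random block (0.000128 and 0.000529) and with the replicate block (0.00147 and 0.00464). For both genes some of the other strains lay near the C57 level and most far below it, with an SD over strains of 2.01 for Trim30d and 1.91 for Trim12a (n = 26). The block fits count single arrays with a within-strain correlation shared by all probe sets. Their p-values can be too small for genes with so wide a spread between strains. Of the 6 measured members of the cluster 0 were called and 3 passed an unadjusted p of 0.05.

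Receptors and sensors of microbes also gave large differences without a call on strain means. Cd14, the co-receptor for lipopolysaccharide, read 6.66 in C57BL/10J, 6.60 in C57BL/6J, 6.56 in C57BLKS/J and 6.74 in C57L/J, against 6.28 in MRL/MpJ to 10.91 in SWR/J and a median of 9.54. The difference of -2.28 ± 0.65 was not called (adjusted p = 0.13), and 3 other strains lay as low. Naip5 and Naip6, of the family that detects flagellin and related proteins, were at 0.98 ± 0.28 and 1.08 ± 0.29 (adjusted p = 0.14 and 0.10). The C57 means were 8.34 to 9.13 for Naip5 and 8.03 to 8.68 for Naip6. Of the other strains, only P/J (9.18 and 8.87) and SEA/GnJ (9.26 and 8.52) reached these levels. Leaving out either one must widen the difference. Without P/J or SEA/GnJ, the differences were 1.04 and 1.04 for Naip5 and 1.15 and 1.13 for Naip6, and both genes were called. Cd300ld, an activating paired receptor, was at 11.59 to 11.89 against 8.50 to 11.77 (1.80 ± 0.51, adjusted p = 0.13). In limma with weights by arrays per strain, Cd14 (adjusted p = 0.0327), Cd300ld (0.0229), Naip5 (0.0196) and Naip6 (0.0105) were called. The 4 genes were called as well with the strain as a random block (adjusted p from 0.000426 to 0.00076) and with the replicate block (0.00364 to 0.0115). These block fits count single arrays, so their p-values can be too small where strains differ widely. In the list of 25 pattern recognition genes 0 were called (5 at an unadjusted p under 0.05, median -0.05), in that of 14 inflammasome genes 0 (2, median 0.15), and in that of 26 Fc and paired receptors 0 (7, median -0.02).

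Of 97 measured genes of granules, cytokine and chemokine receptors, the oxidase and redox enzymes, 3 (3.09%) were called, where 0.496% of all genes were. None of 10 azurophil granule genes, 14 specific granule genes or 29 cytokine and chemokine receptors was called in limma (0, 0 and 5 at an unadjusted p under 0.05), with medians of -0.01, 0.01 and 0.00. Among 13 genes of gelatinase granules and mature neutrophils Ccrl2 was the 1 called. In the NADPH oxidase, which makes superoxide, 1 of 6 measured subunits was lower: Ncf4 (p40phox), by 0.27 on the log2 scale. Ncf4 was at 11.69 and 11.75 in C57BL/10J and C57BL/6J and at 11.98 and 12.09 in C57BLKS/J and C57L/J, where the others were at 11.93 to 12.30. Its call was lost without C57BL/10J (-0.21) or C57BL/6J (-0.23). Of 25 glutathione and redox enzymes 1 was called, Prdx2, a peroxiredoxin, higher by 0.41 ± 0.09. The Prdx2 call was lost without array 2 of C57L/J (0.33), and without C57BL/10J (0.40), C57BLKS/J (0.42) or C57L/J (0.35). Class I histocompatibility genes gave 0 calls of 14 (4 at an unadjusted p under 0.05) and class II genes 0 of 10 (0). The 30 measured genes known to be polymorphic among strains gave 0 calls (3), and so did 3 stefin A genes (1) and 15 immediate early and stress genes (3). Of markers of other bone marrow cells, 0 of 4 erythroid (0), 0 of 12 monocyte and macrophage (3), 0 of 8 basophil and mast cell (1) and 0 of 6 megakaryocyte and platelet genes (0) were called.

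One gene was called through a probe set other than its brightest. Hspa8, a constitutive heat-shock chaperone, had 3 probe sets, of which 1 was higher by 1.29 ± 0.12 (C57 mean 12.29, others between 10.47 and 11.62) and did not overlap, while the others differed by 0.15 and 0.16 and were not called. Hspa8 was singled out after its values were seen, and it has many near-identical processed copies. Of the 126 called probe sets 21 carry no single gene name in the platform's table, 19 of them higher and 2 lower, and they are counted but not named. The largest difference in the higher direction among these was 4.38, above the 4.31 of Olfml2b.

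How well each strain matched the family over the called probe sets was counted by the side of the midpoint between the 2 group means on which it lay. The family and the other classical strains together chose these probe sets and set the midpoint, so the counts of both are a description. C57BL/10J was on the C57 side in 125 of 126, C57BL/6J in 122, C57BLKS/J in 118 and C57L/J in 113. The other classical strains were on that side in 4 (SWR/J) to 24 (NZW/LacJ), with a median of 10. CE/J had 21, and NOR/LtJ and FVB/NJ had 20 each. Galnt10 in C57L/J and Ssh1 in C57BLKS/J are examples of called genes at which a family member lay on the other side.

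**Figure D4:**
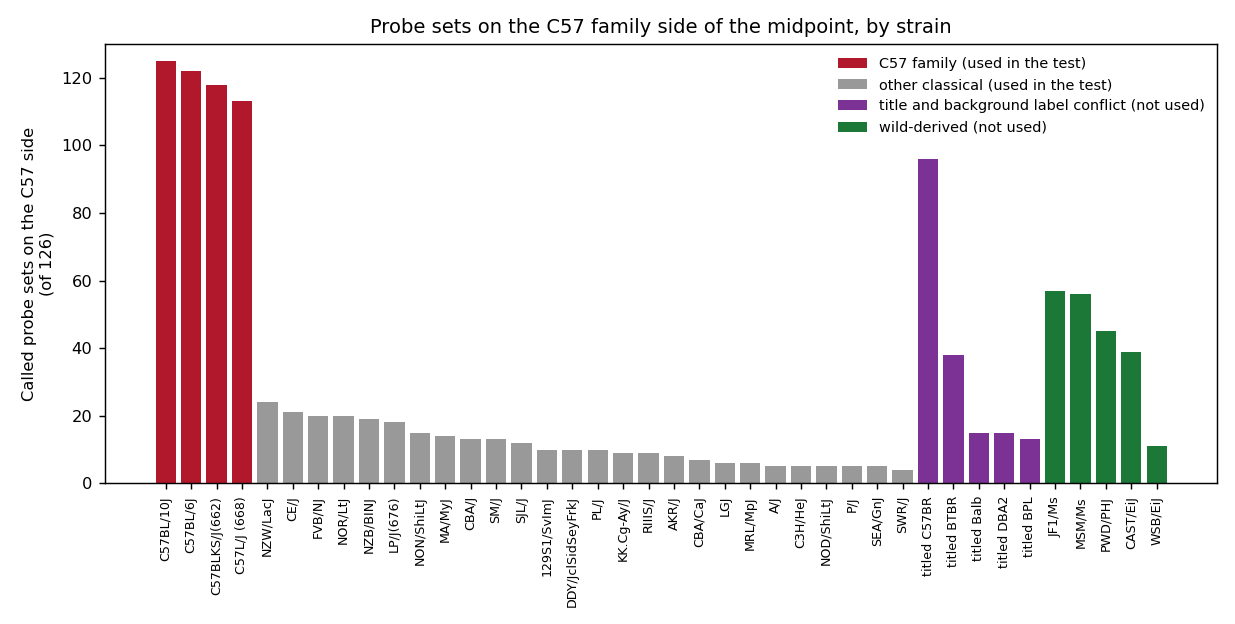
Number of the 126 called probe sets (vertical axis) at which each group lay on the C57 side of the midpoint. Bars are the 4 C57 strains (113 to 125), the 26 other classical strains (4 to 24) and, not used in the test, the 5 groups with conflicting labels and the 5 wild-derived strains; titled C57BR stands at 96.

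The strains of the family also differed from one another. A moderated F test over the 4 strain means used the spread between arrays of a strain, pooled over all 61 arrays. It called 4079 probe sets (16.4%) and 7634 at an unadjusted p under 0.05. Of these 577 (2.32% of all) spanned 2-fold or more from the lowest to the highest mean. Array 2 of C57L/J, the array set apart by its small nucleolar RNA genes, weighed heavily, since 1553 were called without it, 443 of them with a span of 2-fold or more. Of the 126 probe sets that separate the family from the rest, 39 also differed within it, and 24 did without array 2 of C57L/J. Among the 577, the strain farthest from the others was C57L/J in 241 (41.8%), C57BL/6J in 200 (34.7%), C57BLKS/J in 111 (19.2%) and C57BL/10J in 25 (4.33%). Among the 443 called without array 2 the order was not the same, with C57L/J in 171 (38.6%), C57BLKS/J in 139 (31.4%), C57BL/6J in 100 (22.6%) and C57BL/10J in 33 (7.45%). In pairs, 85 probe sets were at least 2-fold apart between C57BL/10J and C57BLKS/J, 177 between C57BL/10J and C57BL/6J, and 327 between C57BL/6J and C57L/J, or 211 without array 2.

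Within the family, C57L/J was set apart by single genes with very large differences. Timp3, a tissue inhibitor of matrix metalloproteinases, read 10.41 and 9.74 in the C57L/J arrays. In the other family arrays it was between 4.97 and 5.70, and no other classical strain exceeded 5.72 (range over the 4 means 4.95; limma F test, adjusted p = 7.9e-26). Vmn2r96, a vomeronasal receptor gene, read 10.71 and 10.41 in C57L/J and 4.05 to 6.39 elsewhere in the family, and P/J reached 11.67. Gdpd3, a lysophospholipase D, was at 12.55 and 12.17 in C57L/J and at 8.48 to 9.19 in the rest of the family. The other classical strains had a median of 8.91, but several lay near C57L/J, such as RIIIS/J (12.71), FVB/NJ (12.16) and KK.Cg-Ay/J (12.08). Pi16, a secreted peptidase inhibitor family member, was low there, at 6.93 and 7.03 against 10.15 to 10.60. SM/J (7.12) and NZW/LacJ (7.14) were about as low for Pi16, where the median of the other strains was 10.41. Nlrp1a, an inflammasome sensor, was also low, at 5.42 and 5.25 against 6.44 to 8.28 in the family and a median of 5.39 in the other strains. Both C57L/J arrays showed each of these, and the F test called Timp3, Vmn2r96, Gdpd3, Pi16 and Nlrp1a without array 2 as well. Snord118 and Snord53, small nucleolar RNAs, were also highest in C57L/J within the family, and array 2 is the array set apart by such RNAs. Snord118 read 12.06 in array 1 and 12.61 in array 2, against 6.38 to 10.15 in the other family arrays. Snord53 read 10.37 in array 1, with a mean of 11.19 over both arrays, against 8.13 to 9.05. Without array 2 both were still called (F test in limma, adjusted p = 1.31e-06 and 6.65e-05), but SWR/J (10.88) and NZB/BINJ (10.66) then lay above C57L/J for Snord53.

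Within the family, C57BLKS/J carried differences of its own. Dnah8, an axonemal dynein heavy chain, read 9.89 and 9.93 there and 6.87 to 7.65 in the other family arrays, while the median of the other classical strains was 9.49. Ccr2, the receptor by which monocytes follow CCL2, was at 6.83 in C57BLKS/J, at 4.16 to 4.30 in the rest of the family and at most at 5.0 in the others. The mean of 12 monocyte and macrophage markers, a list that holds Ccr2, was between 7.36 in C57L/J and 7.56 in C57BLKS/J. H2-Q10, a class I histocompatibility gene, was at 6.28 against 8.37 to 8.87 in the family, and the GTPase Gbp7 at 6.81 against 8.98 to 9.22. Neither level was particular to C57BLKS/J. Several other strains were about as low for H2-Q10, such as NOD/ShiLtJ (6.08) and SEA/GnJ (6.33), and CBA/CaJ was lower for Gbp7 (6.49). The medians of the other strains were 8.41 for H2-Q10 and 8.57 for Gbp7. Itgb2l, an integrin beta-like protein of neutrophils, divided the family in pairs, at 12.10 in C57BL/10J and 12.07 in C57BL/6J against 10.81 in C57BLKS/J and 10.49 in C57L/J. Apobec3, a cytidine deaminase that restricts retroviruses, did likewise, at 8.86 and 8.95 against 7.97 and 7.83 (F test in limma, adjusted p = 3.6e-08).

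C57BL/6J differed from its relatives at Nnt, and from C57BL/10J and C57BLKS/J at genes of cell division. Nnt, the mitochondrial transhydrogenase that carries a known deletion in C57BL/6J, was at 9.14 there and at 9.73, 9.51 and 9.48 in C57BL/10J, C57BLKS/J and C57L/J (F test in limma, adjusted p = 0.0033). The level in C57BL/6J was not the lowest among the strains compared, since CE/J was at 9.10, and LP/J(676) was close at 9.17. Whether the probes lie in the deleted exons was not examined. Of 24 measured cell-cycle genes 21 were called in the F test, where 15.5% of all 19752 genes were, and 21 were called without array 2 of C57L/J, where 5.88% of genes were. Their list mean was 7.13 in C57BL/6J, 7.58 in C57L/J, 8.23 in C57BL/10J and 8.34 in C57BLKS/J. The 5 C57BL/6J arrays were at 7.11, 6.75, 6.87, 7.47 and 7.44, the C57BL/10J arrays at 8.03 and 8.42, the C57BLKS/J arrays at 8.35 and 8.33 and the C57L/J arrays at 7.22 and 7.94. Thus C57BL/6J overlapped with 1 C57L/J array and lay below both other strains. Ccna2, the cyclin of DNA replication, was at 7.85 in C57BL/6J and 9.87 in C57BLKS/J, and the proliferation antigen Mki67 at 8.30 and 9.95. The replication-dependent histone H2ac4 was at 5.71 in C57BL/6J against 9.09 in C57BL/10J and 8.35 in C57BLKS/J. The C57L/J arrays disagreed on it, at 4.29 in array 1 and 6.99 in array 2. As a family against the other strains, cell-cycle genes gave 0 calls of 24 in limma (0 at an unadjusted p under 0.05) with a median of -0.18, and the list mean of the others ran from 6.77 to 9.35. In sorted populations, fewer dividing cells and less of these transcripts per cell cannot be told apart.

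**Figure D5:**
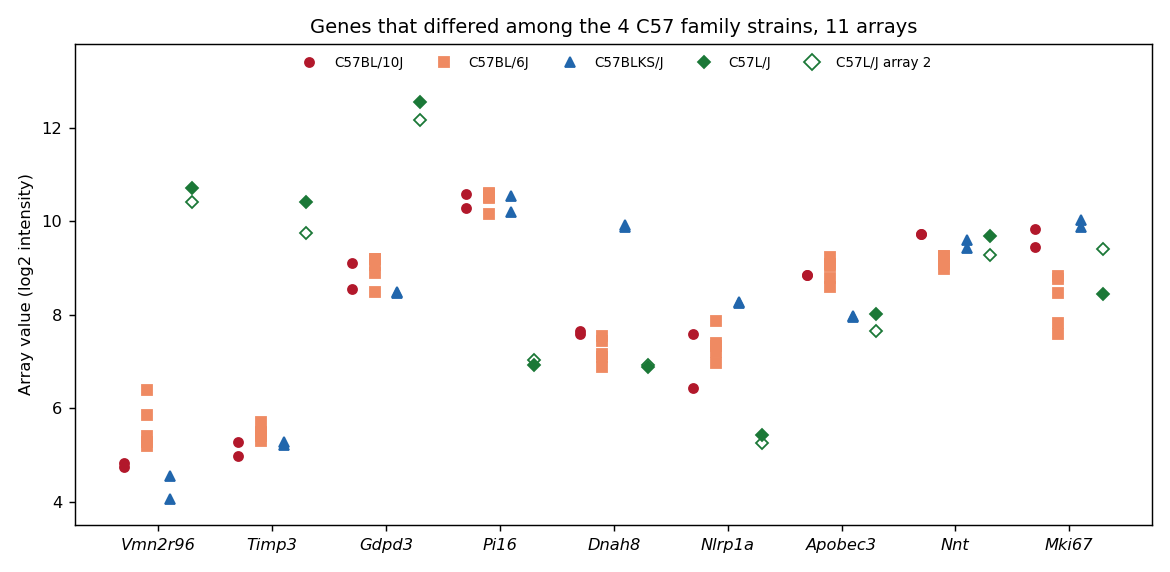
Array values (vertical axis, log2 intensity) of 9 genes that differed among the 4 C57 strains, with 1 symbol per array and 11 arrays; the open diamond is array 2 of C57L/J. Both C57L/J arrays lie far from the rest for Vmn2r96, Timp3, Gdpd3 and Pi16, and C57BLKS/J stands apart for Dnah8.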

How the data were processed

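RNA of CD11b and Ly6G sorted bone marrow neutrophils was hybridised to Affymetrix whole-transcript arrays. The authors deposited 1 intensity per probe set and array, on a linear scale as read from the values; Affymetrix Power Tools and RMA are named, per the submitters' processing notes, with no version. The genome build is not given in the sources used here. These were turned into log2 values with no more scaling. Probe sets took a gene name where the platform's table gives 1 symbol (21425 of 24922). Neighbour order came from the RefSeq gene table of GRCm38.p6, which matched 19677 of 19752 genes, and promoters from RefSeq matched 75 of 98 called genes.

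Tests used limma 3.58.1 in R 4.3.3 (lmFit, eBayes, Benjamini-Hochberg): strain means, 4 against 26 (28 residual and 3.14 prior degrees of freedom), and a moderated F test over the 4 C57 strains. In the family comparison the replicate is the strain. C57 strains are related, so they are not independent draws, and its p-values measure only the spread between these strains. In the F test the replicate is the array (31 residual and 7.75 prior degrees of freedom). Its p-values set the strain means against the spread between arrays of a strain. Arrays of a strain are separate pools of mice, per the series design. The number of arrays limits the precision. The fit was tested on simulated data.

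The members, the 27 lists (376 of 460 entries measured) and the tests were chosen with earlier results of these data known. Named were the 15 higher and 15 lower called genes of largest difference with a mean of at least 7 on the higher side, the 10 F-called genes of largest range, runs of 3 or more called neighbours, up to 4 members per list, and all polymorphic and identity genes. Alternatives changed the scaling, the variance prior, the filter on low values, the weighting or use of single arrays, the replicate number as a block, the strains included and each strain or C57 array left out. Array 2 of C57L/J was left out as an alternative chosen after seeing the data.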

Additional observations from a re-analysis of the deposited data

Results flagged for a closer look

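Dixon's test at the 95% level was applied to the 4 C57 strain means and the 5 C57BL/6J arrays of the called named genes. It picked out 3 of 98 groups, and chance gives about 1 in 20. Cd3d in C57L/J, at 6.37, lay below the other C57 strain means, which reached 6.83. Ssh1 in array 1 of C57BL/6J, at 7.63, lay below the other arrays of that strain, which reached 7.94. Mtus1 in array 3 of C57BL/6J, at 11.12, lay above the other arrays of that strain, the lowest of which was 10.76.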

How the results depend on the processing

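The family comparison (126 called probe sets, 64.3% higher) gave 193 after quantile normalization, 302 with weights by arrays per strain, 474 on single arrays with the strain as a random block and 68 with the wild-derived strains added. With the replicate number as a block and the strain as a random block it gave 271, of which 52.8% were higher. Both random-block fits count single arrays with 1 within-strain correlation for all probe sets. Their p-values can be too small where strains differ widely. Leaving out 1 strain gave 59 (without C57BL/10J) to 146. The spread within the family (4079) fell to 1607 on the 11 C57 arrays alone and to 2643 with the replicate block, and leaving out 1 C57 array gave 1553 to 5289. Replicate numbers did not pair the samples: over 351 pairs of strains the deviations of same-numbered arrays correlated with a median of 0.02 (-0.50 to 0.51), and 99 pairs were over 0.1. No called probe set changed sign under any setting run. Of the 30 genes with the largest called differences, 13 were called under every setting that tested them, and 17 were lost under at least 1. The settings numbered 43, or 42 for genes that the filter on low values left out, such as Ifi207 and Slc7a8. The addition of the wild-derived strains lost 13, and leaving out C57BL/10J lost 10, C57L/J 7, C57BL/6J 6 and C57BLKS/J 6. Markers near 0 and not called under any setting changed sign: Epx was at 0.0093 after quantile normalization, 0.0103 with a common array median, 0.0411 with the replicate block, 0.0164 with C57BL/6J from replicates 1 and 2, 0.0030 without the groups of 1 array and -0.0783 to 0.0312 when 1 strain was left out, and Siglecf at 0.0074 with the weights and -0.0722 to 0.0333 when 1 strain was left out. The causes were not tested. With 4 strains on 1 side, a gene that varies widely among the other strains, such as Trim30d or Cd14, needs a large difference to be called.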

Other observations

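Groups that the comparison did not use were placed on the same 126 called probe sets. Titled C57BR, whose background label names CBA/CaJ, was on the C57 side in 96 (92 and 90 in its arrays), where CBA/CaJ itself was on that side in 7. CBA/CaJ helped choose the probe sets and set the midpoint, and titled C57BR did not, so these counts are not on equal terms. At single genes titled C57BR read 4.63 for Rnase2a, 8.19 for Pctp, 8.57 for Slc7a7, 7.40 for Ifi207 and 11.25 for Olfml2b, each nearer the C57 mean than the mean of the other classical strains. Titled BPL was as high for Ifi207 (7.41), as were titled Balb (11.24) and titled DBA2 (11.54) for Olfml2b. For Has2 titled C57BR read 8.87, nearer the mean of the other classical strains (9.58) than the C57 mean (8.06). The other groups with conflicting labels were on the C57 side in 38 (titled BTBR), 15 (titled Balb), 15 (titled DBA2) and 13 (titled BPL), and Rnase2a was at 5.43 in titled BTBR. The wild-derived strains were on that side in 57 (JF1/Ms), 56 (MSM/Ms), 45 (PWD/PHJ), 39 (CAST/EiJ) and 11 (WSB/EiJ). Pctp was at 8.33, 8.27, 8.45 and 8.08 in JF1/Ms, MSM/Ms, PWD/PHJ and CAST/EiJ and at 6.78 in WSB/EiJ. Rnase2a was between 9.41 and 11.69 in all 5.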
